A study of Mus musculus with 24 samples.

Results

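Spermatogonia, the male germ cells that divide before meiosis, were examined for the RNAs that are abundant in the cell relative to those that are being made. The 6 spermatogonia libraries among the 24 of the series were used: 3 of total RNA, which holds what the cells have kept as well as what they have just made, and 3 of nascent RNA labelled with 5-ethynyl uridine (EU), a uridine analogue that is built into RNA during transcription and captured by click chemistry. Of 52231 rows left after the spike-in rows were dropped, 15643 had a value of at least 1 on the scale given below in at least 2 libraries of each assay and were tested. Total and nascent cells came from wild-type NMRI mice whose spermatogenesis had been synchronised with WIN18,446 and retinoic acid. The mice, 24 days old, received 2 mg of EU for 3 hours, and testis cells were then sorted by ploidy. Total RNA libraries 1 and 2 came from individual 3 and library 3 from individual 1. Nascent libraries 1 and 2 came from individual 7 and library 3 from individual 5. By the labels, no individual gave spermatogonia to both assays. The numbers repeat in the same order, 3, 3 and 1 in total and 7, 7 and 5 in nascent libraries. Whether they stand for different animals was not tested. Total libraries were depleted of ribosomal RNA while EU libraries were not, so assay, individuals and depletion cannot be told apart. Values are FPKM, which are per length, rescaled so that the rows of each library other than spike-ins sum to 1000000, which is the TPM scale. Differences are log2 of the value plus 1, total minus nascent RNA, which understates changes of low genes, and are given with their standard error.

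An RNA that is made fast and destroyed fast takes a larger share of newly made RNA than of the standing pool, while an RNA that lasts accumulates and takes a larger share of the standing pool. Structural RNAs held in stable protein complexes, such as the RNA of the signal recognition particle, and messages for ribosomal proteins are known for long lives. Spermatogonia prepare for meiosis with retinoic acid responsive genes such as Stra8, and many of their messages are bound by RNA-binding proteins such as Dazl.

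The rescaled libraries held 20016 to 20554 rows at 1 TPM or more in total RNA and 15900 to 16853 in nascent RNA. Depth was not stated and was read from the step between low FPKM values: it came to about 9120000, 12200000 and 13100000 reads in total libraries and 10100000, 5980000 and 6030000 in nascent ones. At 1 TPM, a transcript of 1500 bases then rests on 4.25 to 6.57 reads in total RNA and 2.68 to 3.94 in nascent RNA, so values near that level are imprecise. Spike-ins took 2.96% to 6.02% of the deposited FPKM in total libraries and 58.9%, 45.4% and 8.86% in nascent ones. Spearman correlations across genes were 0.798 to 0.866 within total RNA, 0.867 to 0.909 within nascent RNA and 0.721 to 0.808 between them. The labelled cell type was checked against its markers. Zbtb16, Sall4, Dmrt1 and Stra8 were above 37 TPM in all 6 libraries. Gfra1 had 22.1 to 47.6 TPM, Sohlh1 8.78 to 47.0 and Dazl 19.2 to 709. Kit had 36.9, 7.37 and 46.1 TPM in total RNA and 31.2, 42.6 and 48.2 in nascent RNA, and Uchl1 had 3.52, 1.72 and 30.3 in total RNA and 48.3, 27.8 and 5.87 in nascent RNA. Of spermatid genes, Tnp1 was at 0 in 5 libraries, Prm1 had 2.70, 3.89 and 8.38 TPM in total RNA and 0, 0 and 2.08 in nascent RNA, and Acr was above 0 in all 6, at 2.14 to 5.85 in total RNA and 0.307 to 1.31 in nascent RNA. Of pachytene genes, Ldhc had 51.8, 21.9 and 68.0 TPM in total RNA and 2.77, 0 and 2.55 in nascent RNA. Piwil1 had 26.6, 3.52 and 5.23 in total RNA and 5.72, 2.76 and 3.11 in nascent RNA. Pgk2 had 2.45 to 8.32 in total RNA and 0.239 to 0.904 in nascent RNA. The 33 genes of later germ cells summed to 407, 231 and 531 TPM in total RNA, against 118, 81.4 and 117 in nascent RNA. Leydig and Sertoli cell genes were also present, as described below. Genes of undifferentiated spermatogonia summed to 1222, 1183 and 576 TPM in total RNA, against 948, 951 and 511 in nascent RNA. Those of differentiating spermatogonia summed to 849, 751 and 1119, against 716, 1288 and 1551. Both sums were exceeded in total libraries 1 and 2 by Leydig genes (2150 and 1206) and by peritubular and vascular genes (1392 and 1855). The latter also exceeded both in nascent library 1, at 963.

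On the scale used, more genes stood higher in total RNA than in nascent RNA. With the 2 individuals of each assay as replicates, 165 genes (1.05% of those tested) passed the threshold in limma, 143 of them higher in total RNA (0.914%) and 22 higher in nascent RNA (0.141%). At an unadjusted p under 0.05 there were 2951 and 436. All 3 total libraries lay above all 3 nascent ones for 5141 genes (32.9%), and below them for 1007 (6.44%). Over all genes tested the median difference was 0.32, and single genes ran between -8.20 and 5.95. The median depends on scaling: over the same genes it was -0.11 when ribosomal and small RNA rows were left out of the library sums, -0.05 after centring each library on its median gene and 0.29 on FPKM as deposited. The calls depend on it too, at 3 higher in total and 9 higher in nascent RNA after centring, so list medians are read against the all-gene median. Same-numbered libraries of the 2 assays deviated together although their labelled individuals differ, so the number was also tried as a block. With this block and each library as a replicate, which counts 2 libraries of 1 animal as separate, 3129 and 365 genes passed. Without nascent library 3 none passed in limma, with 2311 and 251 at an unadjusted p under 0.05. The counts higher in total were 87 without total library 1, 371 without total library 3, and 54 without either nascent library 1 or 2. The counts higher in nascent RNA were 36, 41 and 121 without total libraries 1, 2 and 3.

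The structural RNAs of the cell stood far to the total side. Of 16 tested RNAs of this kind, 6 rose in total RNA relative to nascent RNA (0.914% of all genes), none fell, and their median difference was 2.28 (1.86 to 2.28 over the 4 scalings). Rn7s1 encodes 7SL, the RNA of the signal recognition particle that brings ribosomes to the endoplasmic reticulum, at chromosome 12, 69159295 to 69159594, plus strand (mm10). It had 113726, 115376 and 148098 TPM in total libraries, against 4124, 5340 and 8857 in nascent libraries. The difference was 4.34 ± 0.39 (adjusted p = 0.0392). Rn7s2 gave almost the same values and its 300 bases are identical to those of Rn7s1, so reads of these copies cannot be assigned to either of them. Rmrp, the RNA of RNase MRP, which cuts precursor ribosomal RNA, had 11338, 13309 and 14012 TPM in total RNA, against 482, 679 and 900.5 in nascent RNA, a difference of 4.19 ± 0.31 (adjusted p = 0.0342). In each of these RNAs every total library was more than 10-fold above every nascent library.

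Rpph1, the RNA of RNase P, which trims transfer RNA precursors, had 8121, 12545 and 21364 TPM in total RNA, against 238, 407 and 738 in nascent RNA (4.93 ± 0.56, adjusted p = 0.0450). Terc, the RNA template of telomerase, had 187, 189 and 241 TPM in total RNA, against 7.70, 5.28 and 5.71 in nascent RNA (4.93 ± 0.27, adjusted p = 0.0217). Rprl3, annotated as an RNase P RNA-like ribozyme on chromosome 8, had the highest difference of all genes tested, 5.95 ± 0.76 (adjusted p = 0.0490), with 1041 to 2873 TPM against 9.79 to 63.5. No nascent value of these RNAs reached the lowest total value. Rn7sk, the RNA that holds the elongation factor P-TEFb in an inactive state, showed 22798, 24018 and 26705 TPM in total RNA and 2317, 2328 and 4550 in nascent RNA, yet narrowly missed the threshold (2.94 ± 0.39, adjusted p = 0.0511).

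Small nucleolar and Cajal body RNAs guide chemical modification of ribosomal and spliceosomal RNA. Of 52 tested rows 6 were called higher in total RNA (0.914% of all genes), none higher in nascent RNA, and 36 did not overlap with total above (32.9% of all genes), with a median of 1.91. Scarna10 had 713, 862 and 1631 TPM in total RNA, against 11.5, 16.9 and 36.2 in nascent RNA (5.59 ± 0.58, adjusted p = 0.0449). Scarna2, whose letters are found in no other annotated transcript, had 1328, 1240 and 1472 against 63.5, 84.6 and 105 (3.96 ± 0.28, adjusted p = 0.0342). The spliced host transcripts that carry such RNAs in their introns had a median of 1.35 over 14 genes, of which none passed (10 higher in total at an unadjusted p under 0.05, none in nascent). Snhg18 (0.11) and Snhg11 (-0.35) overlapped between assays.

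**Figure D1:**
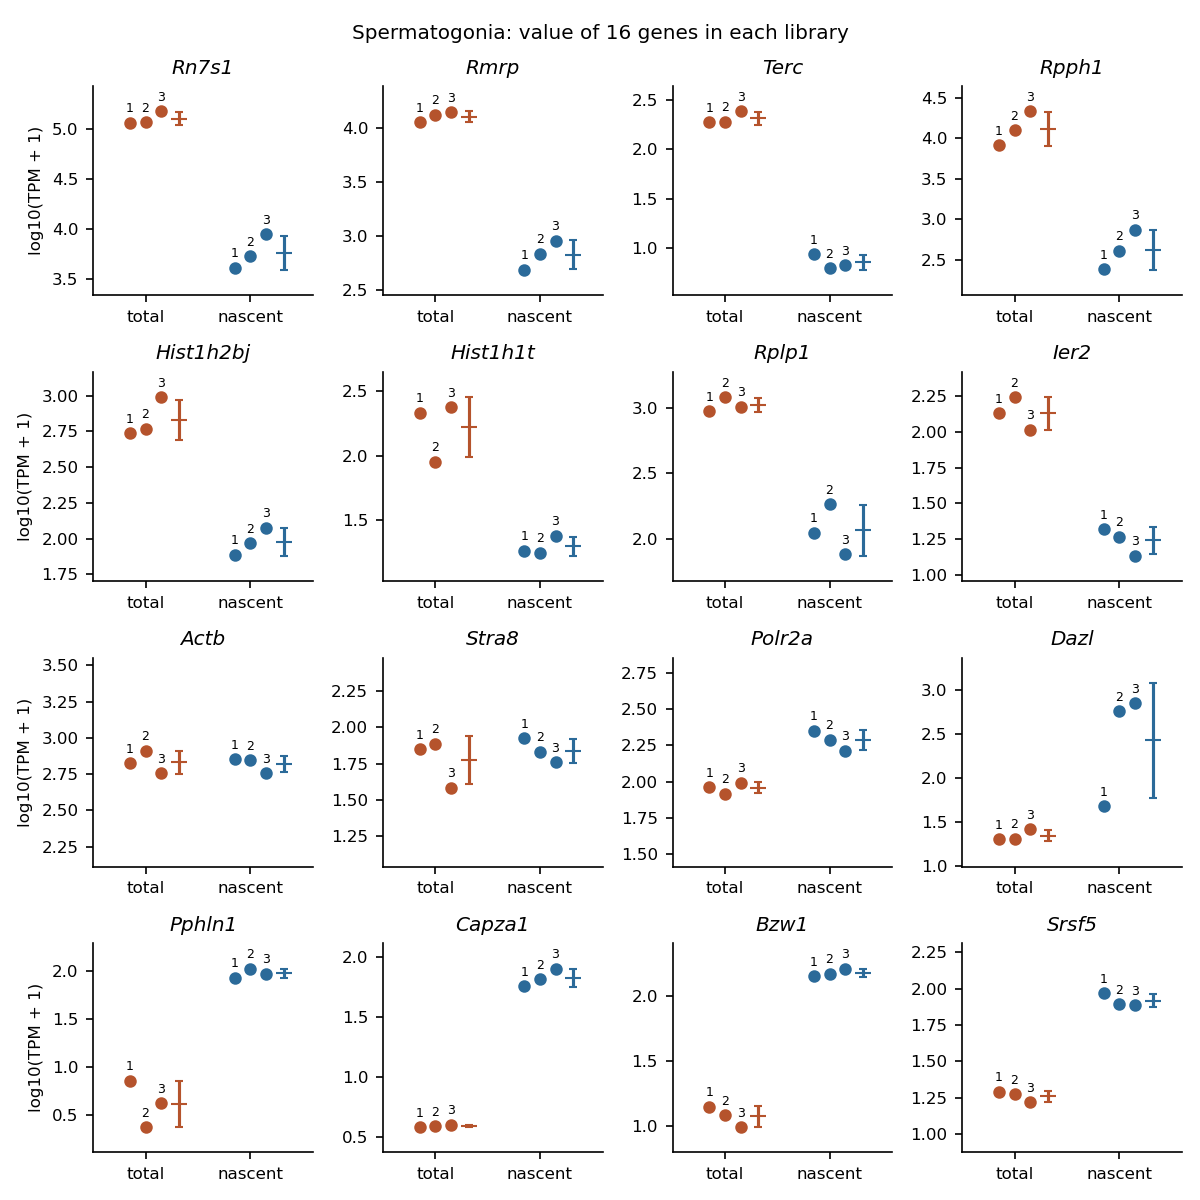
Value of 16 genes in each spermatogonia library, on the scale log10 of the TPM plus 1. Points are libraries 1 to 3 of total RNA (left, orange) and of nascent RNA (right, blue), and the bar beside them is mean ± SD of these log values over the 3 libraries. The axes differ between panels. Rn7s1, Rmrp, Terc and Rpph1 sit at least 10-fold higher in total RNA, Actb and Stra8 overlap, and Pphln1, Capza1, Bzw1 and Srsf5 sit higher in nascent RNA.

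Histone messages were the protein-coding group with the most calls. Replication-dependent histone genes are expressed in S phase, have no introns, and end in a stem-loop instead of a poly(A) tail. Of 62 tested, 26 rose in total RNA (0.914% of all genes), none fell, 59 had every total library above every nascent one (32.9% of all genes), and the median difference was 2.10 (1.6 to 2.11 over the 4 scalings). Hist1h2bj, an H2B gene, had 544, 586 and 977 TPM in total RNA, against 76.0, 92.0 and 118 in nascent RNA (2.89 ± 0.37, adjusted p = 0.0490). Hist1h2ae, an H2A gene, had 55.3, 84.0 and 79.0 in total RNA, against 11.6, 11 and 6.48 in nascent RNA (2.96 ± 0.34, adjusted p = 0.0451). The testis linker histone Hist1h1t, known from spermatocytes, had 215, 88.4 and 238 in total RNA, against 17.1, 16.5 and 22.6 in nascent RNA (3.15 ± 0.36, adjusted p = 0.0450). In none of these genes did a nascent library reach a total one. Other H2A, H2B, H3 and H4 genes are close copies: 67.2% of the 31-base words of Hist1h2bj are also in other genes, so the values of single copies are uncertain.

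The stem-loop was looked for because it is the feature these transcripts share. The letters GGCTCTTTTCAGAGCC, a 6-base stem around a 4-base loop, were held by more 3′ UTRs of these genes than any other such stem (22 of 60) and were searched on the transcript strand of the annotated transcripts (GENCODE M21). They were in 23 of all 12181 protein-coding genes tested (0.189%). Sites of called genes follow, with the 16 letters in capitals.
Hist1h2ab, chr13:23751567-23751592, plus strand: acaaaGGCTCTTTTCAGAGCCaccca
Hist1h2ae, chr13:23570663-23570688, minus strand: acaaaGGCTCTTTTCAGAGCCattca
Hist1h2bj, chr13:22043633-22043658, plus strand: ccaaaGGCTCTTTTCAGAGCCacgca
Hist1h3b, chr13:23752815-23752840, plus strand: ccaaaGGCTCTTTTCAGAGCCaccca
Hist3h2ba, chr11:58949344-58949369, plus strand: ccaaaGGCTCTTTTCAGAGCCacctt
Histone genes with these letters had a median difference of 2.11 and 9 calls in 22. Those without them had a median of 2.05 and 15 calls in 38, and 12 of the 38 genes have no annotated 3′ UTR. The set without them is not one without a stem-loop: other stems of this size were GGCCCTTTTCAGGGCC in 7 and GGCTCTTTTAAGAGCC in 6 of the histone 3′ UTRs, so the medians do not bear on the stem-loop itself. Histone variants, which are mostly polyadenylated, had a median of 0.80 and 1 call in 11 (0.914% of all genes): H2afz, a replacement H2A, with 49.2, 74.2 and 51.7 TPM in total RNA, against 22.9, 5.40 and 7.94 in nascent RNA (2.43 ± 0.30, adjusted p = 0.0487). H3f3b overlapped, at 271, 285 and 121 in total RNA and 66.2, 283 and 319 in nascent RNA.

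Messages for ribosomal proteins formed the other large group. Of 77 tested, 14 rose in total RNA (0.914% of all genes), none fell, 61 had total above without overlap (32.9% of all genes), and the median was 1.87 (1.48 to 1.87 over the 4 scalings). Rplp1, a protein of the ribosomal stalk, had 946, 1208 and 1017 TPM in total RNA, against 110, 182 and 74.8 in nascent RNA (3.33 ± 0.36, adjusted p = 0.0449). Rpl35 had 119, 126 and 113 in total RNA, against 15.3, 0 and 8.66 in nascent RNA (4.24 ± 0.47, adjusted p = 0.0450), and Rpl39 had 44.7, 42.2 and 35.4 against 10.7, 1.46 and 2.51 (3.21 ± 0.34, adjusted p = 0.0449). These genes have many processed copies. Of the 143 rows called higher in total RNA, 44 were annotated pseudogenes, as were 1169 of the 15643 genes tested. Of the 137 called rows with a sequence in the annotation, 80 shared over 50% of their 31-base words with other genes. How reads were divided among such copies bears on these calls. The share of such rows over all genes tested was not computed.

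Other messages of general cell function were less uneven. Over all genes 0.914% were called higher in total RNA, and single calls in the lists that follow are near that share or rest on few genes. Nuclear-encoded respiratory chain genes had a median of 0.997 and 1 call in 76, Cox4i1, a subunit of cytochrome oxidase, with 63.7, 96.0 and 60.3 TPM in total RNA, against 24.3, 8.70 and 13.3 in nascent RNA (2.22 ± 0.27, adjusted p = 0.0487). Cox7a2l (1.24) and Cox8a (2.14) missed the threshold. Glycolysis genes had a median of 1.25 and 1 call in 20, Ldhc, described below. Gapdh, the usual glycolytic reference, had 14.8, 55.2 and 64.5 TPM in total RNA and 13.3, 12.6 and 1.62 in nascent RNA (2.87 ± 0.88, adjusted p = 0.161), Pgam1 differed by 1.37 (adjusted p = 0.131) and Pkm by -0.67 (adjusted p = 0.656). Proteasome genes (median 0.66, 39 tested) and cytoskeleton and chaperone genes (median 0.85, 38 tested) had no calls, with 17 and 18 higher in total and 1 and 2 higher in nascent RNA at an unadjusted p under 0.05. Psmb1, a subunit of the proteasome core, differed by 1.69, and Psme3, a proteasome activator, by -1.92, with total values of 98.0, 2.5 and 42.3. Actb had 669, 816 and 570.0 TPM in total RNA and 710.1, 699.6 and 568 in nascent RNA, a difference of 0.04 that was -0.48 without ribosomal and small RNA rows in the sums. Hsp90ab1 differed by 0.31 (-0.21 without these rows), and both genes overlapped between assays.

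Translation factors had a median of 0.48, which was -0.01 without ribosomal and small RNA rows in the sums. Of 39 tested, 1 was called in each direction (0.914% and 0.141% of all genes). Eif3h, a subunit of the initiation factor that keeps ribosomal subunits apart, rose in total RNA, with 122.5, 95.4 and 101 TPM in total RNA, against 14.5, 18.0 and 15 in nascent RNA (2.67 ± 0.24, adjusted p = 0.0392). Eif4h, which stimulates the helicase that unwinds message leaders, fell, with 5.31, 5.46 and 4.57 in total RNA, against 66.3, 77.1 and 69.6 in nascent RNA (-3.59 ± 0.26, adjusted p = 0.0342). The splicing regulators were also divided. Tra2b had 44.6, 45.1 and 54.1 in total RNA, against 6.87, 1.94 and 3.01 in nascent RNA (3.52 ± 0.29, adjusted p = 0.0389), and Srsf5 had 18.5, 17.7 and 15.5 in total RNA, against 91.9, 77.0 and 76.1 in nascent RNA (-2.19 ± 0.25, adjusted p = 0.0452). The other 24 of the 26 SR proteins and CLK kinases were not called, and the list median was -0.19.

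Lists of short-lived regulators did not share a side: the SR proteins and CLK kinases above had a median below that of all genes, with 7 of 26 above it and 2 higher in total RNA against 5 higher in nascent RNA at an unadjusted p under 0.05, and immediate-early genes had a median above it. Immediate-early genes, which are induced within minutes of a stimulus and whose messages are destroyed quickly, had a median of 1.77 over 27 genes (1.30 to 1.77 over the 4 scalings), 19 of them with total above (32.9% of all genes) and 2 called (0.914%). Ier2 had 134, 174 and 103 TPM in total RNA, against 19.9, 17.5 and 12.7 in nascent RNA (2.94 ± 0.34, adjusted p = 0.0450), and Ier5 had 34.8, 37.3 and 25.5 against 4.87, 4.25 and 4.39 (2.52 ± 0.31, adjusted p = 0.0486). Fos had 29.0, 127 and 10.2 in total RNA and 36.4, 28.7 and 19.9 in nascent RNA, so the assays overlapped. Feedback and stress regulators had a median of 0.82 over 41 genes and no calls (17 higher in total and 1 in nascent RNA at an unadjusted p under 0.05), with Mcl1, a survival factor, at 1.03, Tob1 at 0.47 and Myc at 1.14. Heat-shock genes had a median of 0.99 over 11 genes with no calls (3 and 1 at an unadjusted p under 0.05), Hspa1b at 1.47 and Hspa2 at 1.48 among them. The 342 zinc finger genes had a median of 0.41 (-0.0015 without ribosomal and small RNA rows in the sums) and 2 calls, both higher in nascent RNA (0.141% of all genes): Zfp740 at -2.67 ± 0.29 (adjusted p = 0.0449) and Zfp655 at -2.40 ± 0.30 (adjusted p = 0.0490). At an unadjusted p under 0.05, 69 of them were higher in total and 8 in nascent RNA, beside 2951 and 436 of all 15643 genes. Primary microRNA host transcripts had a median of 0.81 over 4 genes with no calls (1 higher in total at an unadjusted p under 0.05), Mir22hg at 2.11 and Mir9-3hg at -0.11.

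**Figure D2:**
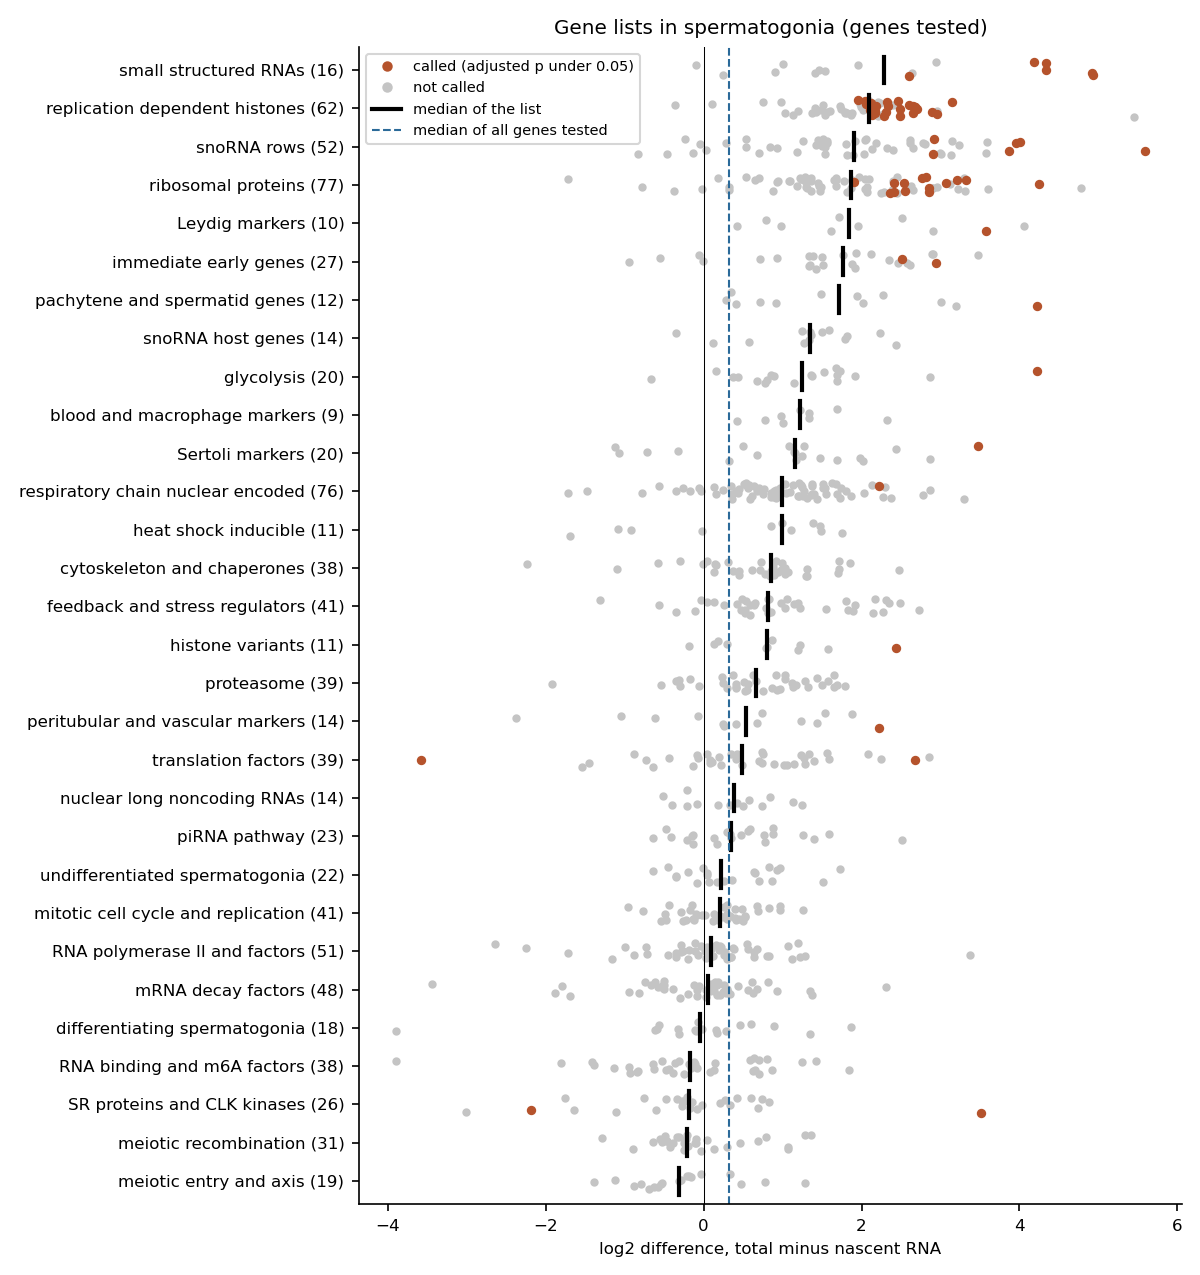
Log2 difference, total minus nascent RNA, of each tested member of 30 gene lists (number tested in brackets), ordered by the list's median. Orange points passed the adjusted p threshold of 0.05, grey points did not, black bars are list medians and the dashed blue line is the median of all genes tested, 0.32. Structural RNAs, replication-dependent histones, snoRNA rows and ribosomal proteins lie farthest to the right, and the meiotic lists lie left of the dashed line.

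Among genes of other testis cells 3 were called, all higher in total RNA: Cst12, Cyp17a1 and Col3a1. The summed levels of the Sertoli, Leydig, and macrophage and blood lists did not overlap between assays, with total RNA above, while those of the peritubular and vascular list did. Summed over 21 Sertoli cell genes the libraries held 893, 875 and 605 TPM in total RNA, against 391, 392 and 230.4 in nascent RNA, with no member at 0 in all 6 libraries. The 12 Leydig cell genes summed to 2150, 1206 and 825 in total RNA, against 313, 429.7 and 189 in nascent RNA. Macrophage and blood genes (13 rows) summed to 208, 194 and 154 against 85.5, 76.5 and 50.2, and peritubular and vascular genes (17 rows) to 1392, 1855 and 903 against 963, 1049 and 573. Cst12, a Sertoli cell cystatin, had 90.0, 103 and 89.9 in total RNA, against 7.32, 5.64 and 8.70 in nascent RNA (3.47 ± 0.28, adjusted p = 0.0388). Cyp17a1, the Leydig cell enzyme that makes androgen precursors, had 132, 87.8 and 72.1 in total RNA, against 10.5, 7.25 and 4.72 in nascent RNA (3.58 ± 0.39, adjusted p = 0.0449). Col3a1, a fibrillar collagen, had 92.9, 114 and 93.9 against 26.0, 21.9 and 17.4 (2.22 ± 0.28, adjusted p = 0.0490).

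The 2 most abundant tested genes of each list missed the threshold: Clu differed by 2.86 (adjusted p = 0.0514), Insl3 by 4.06, Aldh1a1 by 2.51, Lyz2 by 1.70, Col1a1 by 1.23, Aard by 1.15, C1qa by 0.78 and Acta2 by 0.67. Other members went the opposite way. Above 0 lay 16 of 20 Sertoli genes (lowest -1.12) and 10 of 14 peritubular and vascular genes (lowest -2.37). All 10 Leydig and all 9 macrophage and blood genes did, against 10900 of the 15643 genes tested. List medians were 1.16 for Sertoli (1 of 20 called), 1.84 for Leydig (1 of 10), 1.22 for macrophage and blood (none of 9, with 3 at an unadjusted p under 0.05) and 0.54 for peritubular and vascular genes (1 of 14, with 4 higher in total and 2 in nascent RNA at an unadjusted p under 0.05). Over all genes 0.914% were called higher in total RNA. Genes of later germ cells had a median of 1.71 over the 12 of 33 that were tested. Ldhc, the lactate dehydrogenase of spermatocytes and sperm, had 51.8, 21.9 and 68.0 in total RNA, against 2.77, 0 and 2.55 in nascent RNA (4.22 ± 0.50, adjusted p = 0.0455). In these sorted populations fewer cells of a type and less RNA per cell cannot be told apart, and the part of these other cells in the histone, ribosomal protein and immediate-early results was not tested.

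On the nascent side 22 genes were called, 16 of them protein-coding, as were 12183 of the 15643 genes tested. The 16 had 0.947 to 18.5 TPM in total libraries. Pphln1, which encodes periphilin, a protein of epigenetic silencing, lies at chromosome 15, 93398350 to 93491510. It had 6.19, 1.36 and 3.17 TPM in total RNA, against 84.8, 106 and 93.9 in nascent RNA (-4.52 ± 0.26, adjusted p = 0.0219). Capza1, an actin capping subunit, had 2.81, 2.87 and 2.97 in total RNA, against 55.9, 64.0 and 79.1 in nascent RNA (-4.16 ± 0.29, adjusted p = 0.0342). A Capza1 pseudogene, Gm3608, holds 79.6% of its 31-base words and had 59.2, 34.7 and 46.8 in total RNA and 56.5, 30.8 and 42.8 in nascent RNA, so the Capza1 value is uncertain. Rnf114, a ubiquitin ligase, had 5.91, 7.27 and 6.08 in total RNA, against 127, 109.6 and 131 in nascent RNA (-4.10 ± 0.25, adjusted p = 0.0257).

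Bzw1, which inhibits start-codon recognition outside the usual context, had 13, 11.1 and 8.77 in total RNA, against 141, 147 and 162 in nascent RNA (-3.77 ± 0.28, adjusted p = 0.0342). Rnf138, a ubiquitin ligase that acts at DNA breaks, had 9.26, 5.51 and 9.64 in total RNA, against 73.3, 97.0 and 102 in nascent RNA (-3.33 ± 0.29, adjusted p = 0.0392). Rtfdc1 (-2.93), Fam206a (-2.80) and Tpd52l2 (-2.78) also fell, with nascent values of 27.0 to 30.4, 39.9 to 45.6 and 19.13 to 21.4 against total values under 6. None of the total libraries reached the lowest nascent library in any of these genes.

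Several of these genes took a high or a low value in libraries of the same animal. Among 6 pairs of libraries that share individual, stage and assay in spermatogonia and pachytene cells, 95 to 237 of the 15643 genes differed more than 8-fold within a pair, 827 (5.29%) in at least 1 pair. The 827 included 10 of the 143 genes called higher in total RNA and 4 of the 22 called higher in nascent RNA, among them Rnf114, Eif4h and Rtfdc1. Rnf114 had 5.13 and 140.2 TPM in the 2 pachytene total libraries of individual 2, and 143.5 and 8.67 in those of individual 4. Dazl, a germ-cell RNA-binding protein, had 19.2, 19.6 and 25.2 in total RNA and 47.0, 574 and 709 in nascent RNA of spermatogonia, and the first and second nascent values are from 1 animal (-3.89 ± 0.71, adjusted p = 0.0760). Ddx6, a decay and storage helicase, had 5.57, 101 and 5.42 in total RNA against 119, 129 and 157 in nascent RNA (-3.45 ± 0.68, adjusted p = 0.0836). Copz1 was not tested, at 71.0, 0.848 and 0.793 in total RNA and 55.2, 0.311 and 51.2 in nascent RNA. Scarna10 and Scarna6 also differed 25.9-fold and 24.3-fold between pachytene nascent libraries of 1 animal. What lies behind such jumps was not tested.

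The 4 rows with the lowest differences were short and annotated as microRNAs. Mir6236 had 169, 267 and 480.3 TPM in total RNA, against 69663, 96830 and 108116 in nascent RNA (-8.20 ± 0.45, adjusted p = 0.0217). Gm24187, at 40.0, 65.5 and 62.3 in total RNA against 7881, 11191 and 10924 in nascent RNA, differed by -7.46 ± 0.24 (adjusted p = 0.00959). Gm24270 differed by -7.26 ± 0.32 (adjusted p = 0.0211) and Gm25911 by -6.00 ± 0.32 (adjusted p = 0.0217). These rows, and Gm23935, Gm24245 and the merged row of Rn45s and Gm26917, were chosen after their values were seen. The row Gm23935 alone held 108049, 119459 and 47932 TPM in total RNA and 461123, 412304 and 359774 in nascent RNA (-2.42 ± 0.48, adjusted p = 0.0837). Gm24245 overlapped, at 78.3, 69.3 and 25.8 in total RNA and 78.1, 128 and 175 in nascent RNA.

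The sequences of these rows are shown because they are nearly the same (GENCODE M21, mm10). Capitals mark bases that differ from Gm23935, with positions counted from the 5′ end of Gm23935.
Gm23935, chr16:11144125-11144181, plus strand: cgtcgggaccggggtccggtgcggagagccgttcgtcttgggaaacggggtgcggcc
Gm24187, chr13:9834469-9834525, minus strand: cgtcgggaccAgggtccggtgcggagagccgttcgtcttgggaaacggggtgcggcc
Gm25911, chr1:167340369-167340424, minus strand: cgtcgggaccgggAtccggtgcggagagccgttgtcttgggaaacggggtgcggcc
Gm24245 (chromosome 4) and Gm24270 (chromosome 9) hold the same 57 bases as Gm23935. Gm24187 differs by G11A, and Gm25911 differs by G14A and lacks the base at position 34. Gm24270 had 164, 221 and 312 TPM in the total libraries in which Gm23935, with the same letters, had 108049, 119459 and 47932, so how reads of these copies were divided bears on the value of each row, and their differences cannot be read as those of separate RNAs. The mature RNA annotated within Mir6236 is printed with its seed, bases 2 to 8, in capitals (RefSeq, GRCm38.p6).
mmu-miR-6236, chr9:110281353-110281371, plus strand: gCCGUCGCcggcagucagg

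Short rows took large shares of the summed FPKM. FPKM divides by length, so a short row takes a larger share of it than of the reads. Rows annotated as microRNAs held 11.2%, 12.3% and 5.14% of the summed FPKM in total RNA, against 58.0%, 56.6% and 51.9% in nascent RNA. Small structured RNA rows held 30.3%, 31.8% and 39.4% against 1.5%, 1.86% and 3.01%, and protein-coding rows 30.6%, 30.5% and 28.5% against 22.8%, 23.1% and 23.8%. With 2 individuals per assay the exact two-sided permutation test cannot go below p = 0.333, which was its value for each of these 3 classes. Rows named or annotated as ribosomal RNA held 17.5%, 12.8% and 16.2% in depleted total RNA and 12.9%, 13.9% and 15.9% in undepleted nascent RNA, and the merged Rn45s and Gm26917 row differed by 0.09. The 5S rows n-R5s40 (-0.03) and n-R5s97 (0.71) overlapped.

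**Figure D3:**
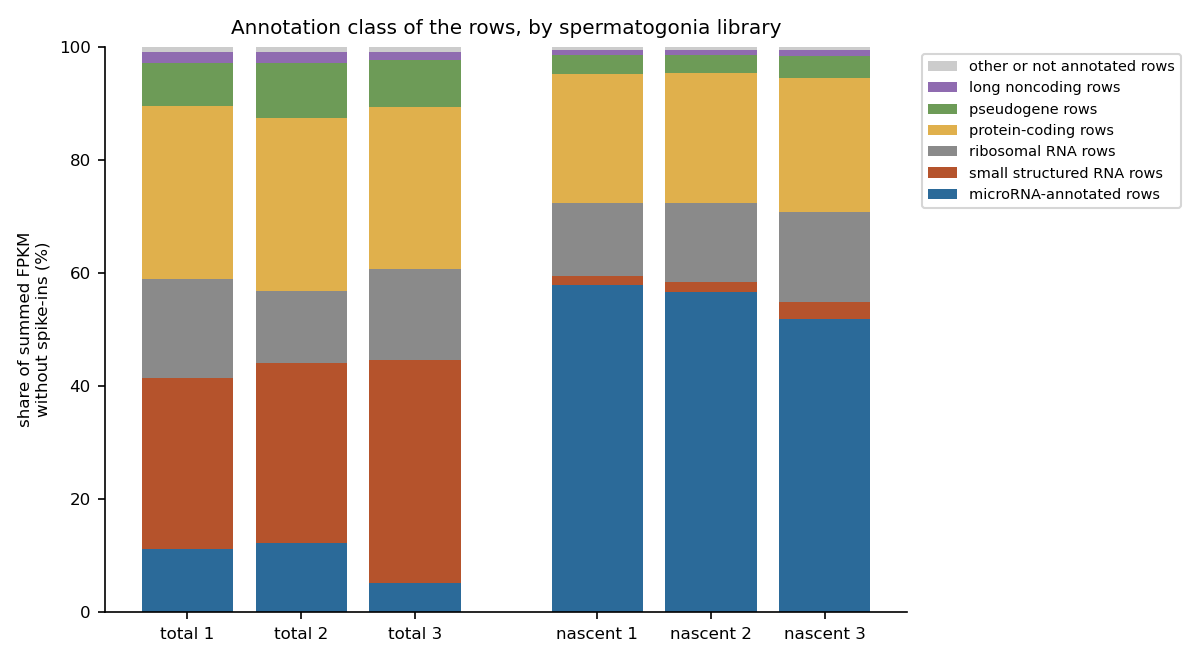
Share of summed FPKM without spike-ins, in percent, by annotation class of the rows in each spermatogonia library, total RNA on the left and nascent RNA on the right. MicroRNA-annotated rows take 51.9% to 58.0% of this sum in nascent libraries, and small structured RNA rows take 30.3% to 39.4% of it in total libraries. FPKM divides by length, so these are not shares of reads.

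All 37 rows of mitochondrial genes were listed at 0 in every library. At least 50% of the 31-base words of 7 nuclear rows are those of a mitochondrial gene, a set chosen after values were seen. Where the reads of these rows come from was not tested. Together the 7 held 11205, 11006 and 11285 TPM in total RNA, against 17727, 14359 and 18669 in nascent RNA. Gm28439, whose words are all in the mitochondrial gene mt-Nd4, a subunit of complex I, had 393.5, 392 and 359 in total RNA, against 2198, 1887 and 2327 in nascent RNA (-2.53, adjusted p = 0.0392) and was the one called. Gm10222 missed the threshold at -4.33 (adjusted p = 0.0511), while Gm28437 had 4126, 4146 and 4555 in total RNA and 3066, 2743 and 3473 in nascent RNA (0.45, adjusted p = 0.350). In 4 of the 7 rows nascent RNA lay above without overlap (6.44% of all genes) and in 1 total RNA did (32.9% of all genes), and nothing is read from these counts since the set was chosen after its values were seen.

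Lists of spermatogonial, meiotic and cell-cycle genes had medians below that of all genes, the piRNA pathway had about the same, and none of these lists held a call. Genes of meiotic entry and the chromosome axis had the lowest median, -0.31 over 19 genes, with 4 of 19 above the all-gene median and 1 higher in total and 2 in nascent RNA at an unadjusted p under 0.05. Stra8, the retinoic acid target needed for meiotic entry, had 69.5, 76.2 and 37.3 TPM in total RNA and 83.3, 67.1 and 56.7 in nascent RNA (-0.31 ± 0.40). Meioc, which lengthens meiotic prophase, had 128, 60.6 and 259 in total RNA, against 291, 279 and 551 in nascent RNA (-1.38 ± 0.61, adjusted p = 0.274), and Tex15 overlapped at -0.53. Recombination genes had a median of -0.22 over 31 genes, with Brca2 at 35.1, 34.8 and 19.3 in total RNA, against 52.9, 59.2 and 76.0 in nascent RNA (-1.29 ± 0.38, adjusted p = 0.150), and Ccdc36 at -0.22; at an unadjusted p under 0.05, 3 were higher in total and 1 in nascent RNA.

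Genes of differentiating spermatogonia had a median of -0.05 over 18 genes (3 and 1 at an unadjusted p under 0.05), which was 0.04 on FPKM as deposited. Kit, the stem cell factor receptor, differed by -0.57 ± 0.52 and Dmrt1 by -0.02. Genes of undifferentiated spermatogonia had a median of 0.22 over 22 genes (1 and 0), which was -0.27 without ribosomal and small RNA rows in the sums. Zbtb16, the repressor that keeps these cells, had 149, 178 and 64.3 in total RNA and 151, 149 and 63.7 in nascent RNA, Gfra1, the GDNF receptor, differed by -0.35 and Sdc4 by 0.93. Cell-cycle genes had a median of 0.21 over 41 genes (2 and 1), -0.16 after centring, with Mki67 at -0.29, Mcm4 at -0.26 and Ccne2 at -0.96 ± 0.32 (adjusted p = 0.186). The piRNA pathway had a median of 0.34 over 23 genes (5 and 0), -0.03 after centring, with Mael at 1.26 and Piwil2 at 0.59.

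Genes that act on transcription and on RNA fate lay in the same range. Subunits and factors of RNA polymerase II had a median of 0.09 over 51 genes, -0.29 after centring (6 higher in total and 4 in nascent RNA at an unadjusted p under 0.05). Polr2a, its largest subunit, had 90.7, 81.7 and 97.5 TPM in total RNA, against 224, 194 and 163 in nascent RNA, with no overlap, but was not called (-1.0 ± 0.26, adjusted p = 0.123), and Taf7l overlapped at 0.04. Decay factors had a median of 0.06 over 48 genes, -0.31 after centring (4 and 6), with Zfp36l1 at 0.03, and RNA-binding and m6A factors -0.17 over 38 genes (3 and 2). Nuclear long noncoding RNAs, among them Malat1 with 5098, 5024 and 1271 in total RNA and 2108, 2282 and 917 in nascent RNA, had a median of 0.38 over 14 genes, -0.05 without ribosomal and small RNA rows in the sums (1 and 0). Tug1 differed by -0.52 and Xist, at 1.45 to 2.51 TPM in the 6 libraries, by -0.22.

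Across protein-coding genes the difference went with the build of the transcript. In 5 bins of transcript length with near equal numbers of genes the median was 0.64 in the shortest (up to 1705 bases), then 0.40, 0.27, 0.15, and -0.05 in the longest (4934 bases and over). The shortest bin held 60 of the protein-coding genes called higher in total RNA and the longest 1. Genes of 1 exon had a median of 0.95, those of 2 exons 0.74, and those of 11 or more 0.10. The order by exon number also held within the shortest bin, 1.27 at 1 exon, 0.95 at 2, 0.73 at 3 to 5, 0.52 at 6 to 10 and 0.41 at 11 or more, but not at the top within the longest, where 19 genes of 1 exon had 0.06, 53 of 2 exons 0.53 and 1697 of 11 or more -0.11. By uridine content, which bears on EU labelling, the median was 0.46 in the lowest of 5 bins and -0.01 in the highest. With uridine in 4 bins, it was 0.78 at the least and 0.49 at the most uridine within the shortest transcripts, and 0.07 and -0.20 within the longest. Over 12181 genes Spearman's rho was -0.35 with length, -0.30 with exon number and -0.25 with uridine. These points share the same 6 libraries and the features go together, and FPKM divides by length, so the part of each was not tested. The gene lists differ in length too. Median transcript length was 532 bases for replication-dependent histones, 835 for ribosomal proteins and for respiratory chain genes, and 3029 for immediate-early genes. The part of length in the list medians was not tested.

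**Figure D4:**
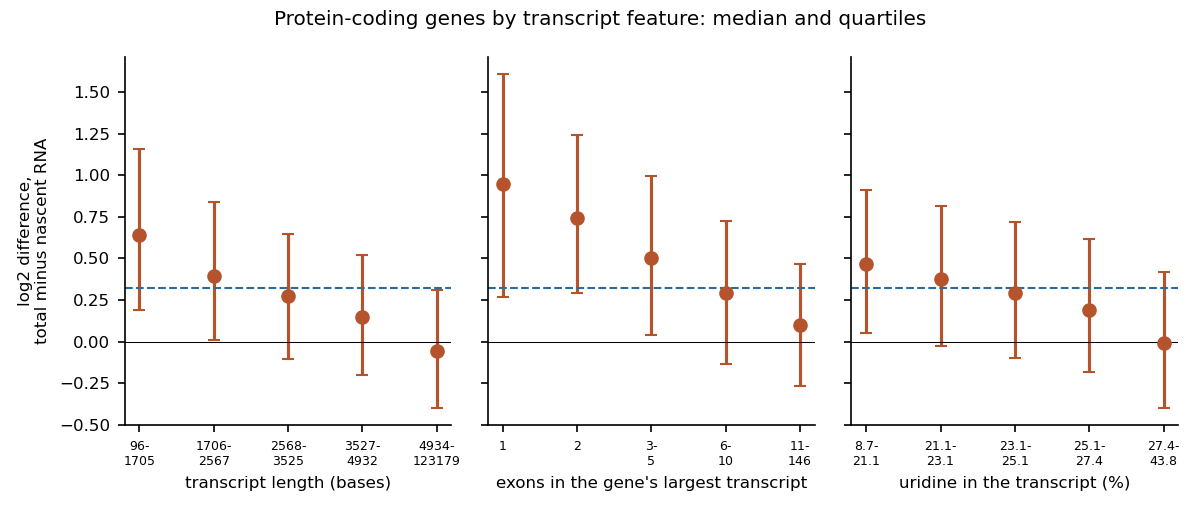
Median log2 difference, total minus nascent RNA, of protein-coding genes binned by transcript length, exon number and uridine content, with bars from the lower to the upper quartile of genes. The dashed blue line is the median of all genes tested, 0.32. Medians go down in each panel, to -0.05 in the longest transcripts, 0.10 at 11 exons or more and -0.01 at the most uridine.

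Letters in the 3′ UTR were searched next. The Pumilio motif TGTANATA, searched on the transcript strand, was in 2907 of 12181 genes (23.9%), whose median was 0.07, against 0.33 for those without it. It was lower with a site than without in each of 5 bins of UTR length. Within UTRs of up to 300 bases the medians were 0.12 with 2 sites or more (12 genes), 0.38 with 1 and 0.56 without, within UTRs of 301 to 700 bases 0.30 with 1 site and 0.44 without, and within UTRs of 2502 bases or more they were -0.12 with 2 sites or more and 0.08 without. The AU-rich motif TATTTAT was in 3328 genes (27.3%), with a median of 0.11 against 0.32 without it. With 1 site the median was lower than without in each of the 5 bins, while with 2 or more it was lower in some bins only. Within UTRs of 301 to 700 bases the medians were 0.38 with 1 site and 0.43 without, and 0.49 with 2 or more (54 genes). Within UTRs of 2502 bases or more they were -0.07 with 2 or more (611 genes) and 0.07 without. A match of letters is not a site of binding.

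The same comparison in pachytene spermatocytes, with 4 libraries of 2 animals per assay, served to ask which differences are particular to spermatogonia. Of the genes tested 1 (0.00639%), Rnf7, passed the limma test of the difference between the stages, higher in spermatogonia, and none passed in the other direction (0%). There were 1471 genes at an unadjusted p under 0.05, and 1134 passed with the replicate number as a block and each library as a replicate. In the fit over animals none of the 44 called genes named here passed, and their lowest adjusted p was 0.227. Structural RNAs had differences of the same sign in both stages, with Rn7s1 at 4.34 in spermatogonia and 4.25 in pachytene cells, Rmrp at 4.19 and 3.72, Rpph1 at 4.93 and 3.89, Rprl3 at 5.95 and 4.85, and Terc at 4.93 and 3.28. The short row Mir6236 stood at -8.20 and -9.52. Among histone and ribosomal protein genes the values lay close for Hist1h2bj (2.89 and 2.84) and Rplp1 (3.33 and 3.44) and farther apart for Hist1h2ae (2.96 and 1.21) and Rpl39 (3.21 and 0.12). Protein-coding genes called higher in nascent RNA lay nearer to 0 in pachytene cells, with Pphln1 at -4.52 and -0.92, Capza1 at -4.16 and -0.43, Bzw1 at -3.77 and -0.77 and Srsf5 at -2.19 and 0.32. Markers of somatic cells did too, with Cyp17a1 at 3.58 and 0.59 and Col3a1 at 2.22 and 0.61. Cst12 had 3.47 in spermatogonia and exactly 0 in pachytene cells, as a gene at 0 in all libraries would have. No balance between assays is read from its pachytene value. These genes were chosen for their values in spermatogonia, so values nearer to 0 in another stage are a description only.

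**Figure D5:**
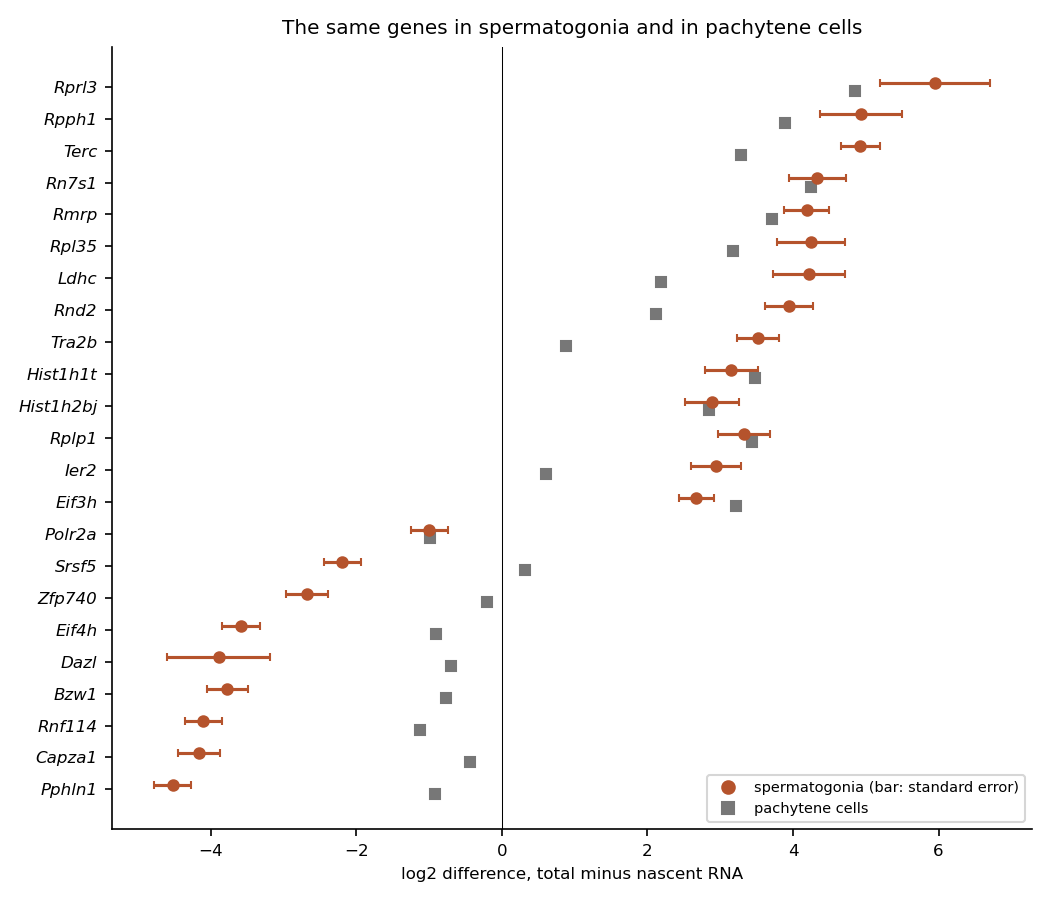
Log2 difference, total minus nascent RNA, of 23 named genes in spermatogonia (orange, bar is the standard error) and in pachytene cells (grey squares). Rn7s1, Rmrp, Rplp1 and Hist1h2bj take similar positions in both stages, while Pphln1, Capza1, Bzw1 and Rnf114 lie farther from 0 in spermatogonia, a difference that passed the test in none of them.

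Genes detected in 1 assay were not tested. At least 1 TPM in 2 libraries was reached in total RNA only by 4594 genes and in nascent RNA only by 325. Among the most abundant of the 4594 were H1fx, a linker histone, with 93.7, 77.6 and 114 TPM in total RNA and 90.8, 0 and 0 in nascent RNA. Eif1a, with 97.8, 0.330 and 0.0101 in total RNA and 37.7, 37.4 and 27.8 in nascent RNA, was among the 325. Both were chosen after their values were seen, and both jump between libraries of 1 assay.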

How the data were processed

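Gene-level FPKM of total RNA and of EU-labelled RNA were deposited by the authors; per the submitters' processing notes STAR 2.5.2a, StringTie and mm10 were used. The annotation, the strand setting and the StringTie version are not given in the sources used here, which leaves values of overlapping genes uncertain. The 5S-corrected table was not used. Per the labels' protocols spike-ins went in after extraction and give no RNA amount per cell; their 92 rows were dropped. Each library was rescaled to 1000000 over the other rows (TPM), 1 was added and log2 taken. Between 34.0% and 41.6% of low values lay within 0.05 of whole reads, so reads were not recovered and no count test was run.

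Libraries of 1 individual were averaged. Both assays entered 1 linear model per gene (R 4.3.3, package limma 3.58.1, moderated two-sided test with a mean-dependent prior), adjusted by Benjamini-Hochberg over the 15643 genes tested at a threshold of 0.05, and p-values rest on 2 individuals per assay. The contrast of stages used all 24 libraries. On simulated data for this comparison the fit recovered 99% of genes changed by 2 and 100% of those changed by 4 on the log2 scale, and called 13 unchanged genes. Each simulated gene had the spread typical of its level, without genes or libraries that vary more. Among real genes Insl3 (4.06 ± 0.71) and Dazl (-3.89 ± 0.71) were not called, so these shares do not carry over to the real data. Same-numbered libraries of the 2 assays deviated together (correlations 0.161, 0.218 and 0.371) although the labelled individuals differ. Why they do was not tested, and the block on the number rests on these correlations.

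Gene lists, members and rules were chosen with earlier results of these data known. Named genes are the 10 largest called differences per direction with a mean of at least 5 TPM and no overlap (leaving out predicted genes and pseudogenes, and rows for microRNAs, snoRNAs or 5S), up to 3 called members of each list or its 2 most abundant, and a fixed set. Classes, lengths and sequences are from GENCODE M21 by symbol. Python 3.11.15, pandas 2.3.3, scipy 1.17.1 and matplotlib 3.10.9 were used. Alternatives were the pseudocount, the filter on low values, the scaling, the replicate unit and block, the stages in the fit, the prior and leaving out each library.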

Additional observations from a re-analysis of the deposited data

Results flagged for a closer look

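Rnf7, which encodes a RING subunit of cullin ubiquitin ligases, was the one gene whose difference between total and nascent RNA itself differed between spermatogonia and pachytene cells; it was singled out after its values were seen. In spermatogonia it had 94.9, 87.2 and 89.9 TPM in total RNA, against 62.8, 55.6 and 68.1 in nascent RNA. In pachytene cells the 4 total libraries held 0.716 to 1.06 TPM, against 84.5 to 97.3 in the 4 nascent libraries. The spermatogonia difference minus the pachytene difference was 6.13 ± 0.53 (limma, adjusted p = 0.00059), and it stayed past the threshold in every alternative run, at 4.76 to 6.45. In leptotene cells the total libraries held 62.2 to 219.9 TPM. The cause was not tested.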

How the results depend on the processing

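Calls lay close to the threshold, and their number moved with most choices, given here as higher in total, then higher in nascent RNA. They were 39 and 13 with a pseudocount of 0.25, 223 and 32 with 4, 330 and 42 with at least 5 TPM in all 6 libraries, 44 and 12 when either assay had to pass, 3 and 9 without ribosomal and small RNA rows in the sums, 3 and 9 after centring, 631 and 101 on FPKM as deposited, 778 and 62 with all stages in the fit, and 3 and 6 without the mean trend. They were 0 and 0 in limma with any gene above 0 in 1 library (5978 and 512 at an unadjusted p under 0.05) and with the filter over all 12 libraries of each assay (4321 and 468). With each library a replicate they were 2212 and 167 without the replicate block and 3129 and 365 with it, and the 165 genes called at first were all among those with the block. Leaving out 1 library gave 0 to 371 and 0 to 121. Without library 3 of an assay 1 individual is left there, which is assumed to vary like the other assay. Genes differing between stages numbered 32 with a pseudocount of 4, 4 after centring, 13 with spermatogonia and pachytene cells alone, 1134 with the replicate block, and 1 to 12 leaving out 1 spermatogonia library: 2, 5 and 12 without total libraries 1, 2 and 3 and 5 without nascent library 1. The 44 named called genes kept their direction in all 818 alternative values and were called in 482. Signs turned in uncalled genes near 0: n-R5s40 was 0.049 with a pseudocount of 0.25, and Fos 0.052 with 4; on FPKM as deposited Dmrt1 was 0.058 and Fos 0.11. Without ribosomal and small RNA rows and after centring, Snhg18 was -0.39 and -0.26, Actb -0.48 and -0.34, Hsp90ab1 -0.21 and -0.067, Taf7l -0.48 and -0.33, Zfp36l1 -0.48 and -0.34, Zbtb16 -0.45 and -0.31, and Rn45s;Gm26917 -0.42 and -0.28; Tob1 was -0.038 without these rows. With libraries as replicates, with and without the block, n-R5s40 was 0.37, H3f3b 0.21, Taf7l -0.034 and Fos 0.30. Leaving out 1 library gave Actb -0.12 to 0.22, Ccdc36 -0.53 to 0.044, Dmrt1 -0.13 to 0.083, Fos -0.53 to 1.23, H3f3b -0.71 to 0.42, Mir9-3hg -0.54 to 0.28, Mki67 -0.84 to 0.19, Pkm -1.16 to 0.49, Rn45s;Gm26917 -0.022 to 0.21, Snhg18 -0.18 to 0.70, Stra8 -0.51 to 0.16, Taf7l -0.14 to 0.11, Zbtb16 -0.54 to 0.73, Zfp36l1 -0.20 to 0.68 and n-R5s40 -0.35 to 0.63. Causes were not tested. Nascent libraries 2 and 3 had the lowest depth, which limits genes near 1 TPM.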
